A study of Mus musculus with 24 samples.

Results

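The myosin light chain genes and the kinases that phosphorylate them were examined in C2C12 cells, an established mouse myoblast line, at 21% or 2% oxygen, while dividing in growth medium or after transfer to differentiation medium. The 10 genes were taken by symbol from the 24043 gene symbols of the deposited table. They comprise 5 striated muscle light chains (Myl1, Mylpf, Myl2, Myl3 and Myl4), 3 light chains of nonmuscle and smooth muscle myosin (Myl6, Myl6b and Myl9) and 2 kinases (Mylk and Mylk2). Values are FPKM, fragment counts scaled by transcript length and by the size of the library, which allow levels of different genes to be compared per length. Of the 10 members, 9 reached a group mean of 1 FPKM somewhere and were tested, as were 12389 genes in all. Myl3 did not pass, and Myl2 and Mylk2 passed only through the normoxic differentiation group, so a difference of that group was built into their selection.

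Growth medium was DMEM with 10% fetal bovine serum, in which the cells were kept below confluence. Differentiation medium was DMEM with 2% horse serum and an insulin, transferrin and selenium supplement. Each medium was used at 21% oxygen, called normoxic here, and at 2%, called hypoxic, which makes 4 groups with RNA-seq libraries A and B in each. No genetic change of the line is given for any group, and the time spent in differentiation medium or at 2% oxygen is not given in the sources used here. The series design calls A and B biological replicates without saying how they were set up, so p-values measure the spread between these libraries.

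A myosin motor is made of heavy chains that each carry 1 essential and 1 regulatory light chain at the lever arm. In striated muscle the light chains tune the speed and force of a contraction that is switched on by calcium through troponin, while in smooth muscle and nonmuscle cells myosin is switched on when a calcium-dependent kinase phosphorylates the regulatory chain. Differentiating myoblasts assemble sarcomeres and are known to add the striated light chain set to the nonmuscle set already present in dividing cells.

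To show the regulatory letters that precede 2 striated genes that rose together and 1 smooth muscle gene that did not, the RefSeq bases just upstream of their start sites are given 5′ to 3′ from build GRCm38.p6. Capitals mark matches to the motifs searched: the E-box CANNTG, a site bound by the MyoD family, its form CAGCTG, which is also counted as an E-box, and the CArG box bound by serum response factor.
Mylpf, chr7:127211358-127211607, plus strand: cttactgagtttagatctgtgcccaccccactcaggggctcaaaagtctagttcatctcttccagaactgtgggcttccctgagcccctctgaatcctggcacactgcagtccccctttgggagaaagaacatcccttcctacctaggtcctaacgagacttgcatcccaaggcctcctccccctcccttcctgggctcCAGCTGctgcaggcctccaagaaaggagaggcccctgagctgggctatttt
Myl1, chr1:66945057-66945306, minus strand: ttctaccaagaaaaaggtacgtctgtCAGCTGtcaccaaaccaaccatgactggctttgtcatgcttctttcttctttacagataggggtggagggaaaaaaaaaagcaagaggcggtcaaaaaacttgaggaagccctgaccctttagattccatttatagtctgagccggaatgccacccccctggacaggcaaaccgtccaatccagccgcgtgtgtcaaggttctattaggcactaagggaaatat
Myl9, chr2:156775214-156775407, plus strand: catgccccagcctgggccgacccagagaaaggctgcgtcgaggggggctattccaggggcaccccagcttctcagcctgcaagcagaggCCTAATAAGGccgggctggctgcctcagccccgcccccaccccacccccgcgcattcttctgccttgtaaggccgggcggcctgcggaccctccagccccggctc
The Mylpf and Myl1 windows of 250 bases lie inside the span of longer RefSeq models of the same genes, and the Myl9 stretch of 194 bases ends where the gene's RefSeq span begins, short of the start site from which distances are counted. Windows were found for 9 members, with 11 windows in all. CAGCTG began 51 bases before the Mylpf start site and 224 bases before that of Myl1, and it was also in 1 of the Myl2 windows, 130 bases before the start. It was in 13% of all 32851 windows of this length, and any E-box was in 66.2%. Of the members 6 had an E-box of any form, among them Myl3, Myl6b and Myl6, which fell with differentiation medium in normoxia. Myl4, which rose there, had none, and neither had Myl9 or Mylk. A CArG box began 161 bases before the Myl9 start site, 50 bases before 1 of the Myl6 start sites and 85 bases before that of Myl3, against 1.47% of all windows. Neither a MEF2 box, found in 2.92% of all windows, nor TATAA on the gene's strand, found in 16%, matched in a member's window. These matches describe letters in a window and were not tied to binding. The E-box and CArG patterns read the same on both strands, the MEF2 box was searched on both, and the submitters' processing notes name a different build, mm9, for the expression values.

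Whole libraries were compared first. Replicates correlated with Pearson's r of 0.975 to 0.983 across the tested genes in 3 groups and 0.958 in hypoxic differentiation medium, where the replicates stood furthest apart. Relative depth, estimated from the smallest steps between low values, ran from 0.633 to 1, both ends being the hypoxic differentiation libraries B and A. The myoblast genes Myod1, Myf5 and Des were above 0 in all 8 libraries, with Myod1 lowest in hypoxic differentiation medium at 6.95 and 11.8 FPKM and highest in normoxic differentiation medium at 180.5 and 171.5 FPKM. Of 6 markers of endothelial, blood, epithelial and fat cells, none reached a group mean of 1 FPKM, and their sum was at most 0.290 FPKM in any library. In bulk RNA, fewer cells of a type and less RNA per cell cannot be told apart, which holds for every level given here.

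With differentiation medium at 21% oxygen the 4 tested striated chains, Myl6b and the skeletal kinase Mylk2 rose and Myl6 and the smooth muscle kinase Mylk fell, while at 2% oxygen the same medium was accompanied by a rise of Myl1, Mylpf and Myl6 alone. In normoxia 6 of the 9 tested members rose with differentiation medium (limma, adjusted p under 0.05), where 25.5% of all tested genes rose, and 2 fell, where 41% fell. In hypoxia 3 members rose, against 23.3% of all tested genes, and none fell, against 17.6%. Lower oxygen in growth medium was accompanied by a fall of 7 members, against 28% of all tested genes, and by no rise, against 13.5%. Lower oxygen in differentiation medium came with a fall of 6 members, against 27.7%, and a rise of 1, against 37.5%. The change with medium differed between the oxygen levels for 8 members, more positive in hypoxia for 2 of them, against 35.4% of all tested genes, and more negative for 6, against 18.7%. Myl2 and Mylk2 are among these 6, the 6 rises with medium in normoxia and the 6 falls with lower oxygen in differentiation medium. Both were tested only through normoxic differentiation medium, so these calls were built into their selection. The count of 3 for medium in hypoxia was 1 in a fit of the compared libraries alone and 1 without either normoxic differentiation library or hypoxic growth library B. The count of 7 for oxygen in growth medium was 4 with no filter on low values, and 4 without normoxic growth library A, either normoxic differentiation library or either hypoxic growth library. The 5 contrasts share libraries, so they are given side by side and not as support for each other. Rescaling the libraries by their median ratio moved the median change over the tested genes, on the log2 scale, from -0.20 to 0.03 for medium in normoxia, from -0.14 to -0.04 for oxygen in growth medium, from 0.15 to -0.03 for oxygen in differentiation medium and from 0.27 to -0.01 for the interaction. The share of calls that were rises went from 38.4% to 53.6%, from 32.6% to 43.4%, from 57.5% to 46.5% and from 65.5% to 47.3% in the same order, and with upper-quartile scaling it was 49.3% for oxygen in growth medium. Small changes of members are to be held against these shifts.

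**Figure D1:**
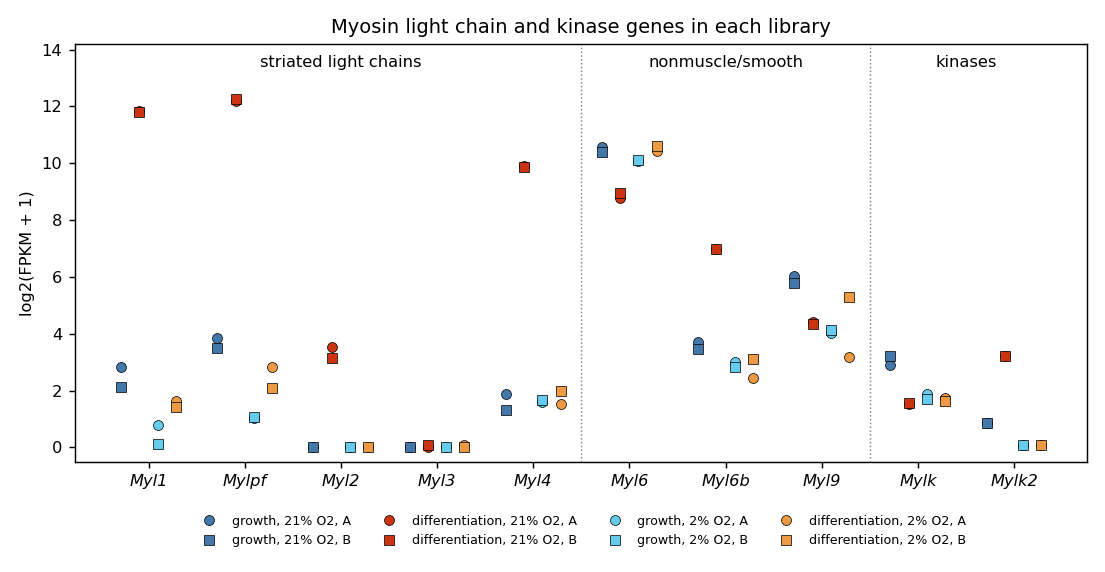
Level of each member in each library on the log2(FPKM + 1) scale, with circles for replicate A and squares for replicate B and 1 colour per group. The striated chains Myl1, Mylpf and Myl4 stand far above the other groups in both normoxic differentiation libraries, while Myl6 is lowest there.

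Mylpf encodes the fast skeletal regulatory light chain. Its level was 13.6 and 10.3 FPKM in normoxic growth medium (libraries A and B), 4673 and 4936 after normoxic differentiation, 1.06 and 1.12 in hypoxic growth medium, and 6.12 and 3.23 in hypoxic differentiation medium. No library of one group overlapped another group, and hypoxic differentiation libraries remained below normoxic growth libraries. With differentiation medium Mylpf rose by 8.55 ± 0.24 in normoxia (log2 change of FPKM + 1 ± SE, adjusted p 7.5e-07), or 402.6-fold between group means. In hypoxia it rose by 1.39 ± 0.24 (adjusted p 0.00517), or 4.29-fold. The log2(FPKM + 1) scale understates changes of genes near or under 1 FPKM, so the 2 fitted values are not on an equal footing. The difference between them was -7.16 ± 0.34 (adjusted p 1.5e-05). The log2 change with lower oxygen was -2.62 ± 0.24 in growth medium (adjusted p 0.000387) and -9.77 ± 0.24 in differentiation medium (adjusted p 3.6e-07).

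Myl1, whose promoters give the fast skeletal essential chains, was the second most abundant member in normoxic differentiation medium. It was at 6.09 and 3.39 FPKM in normoxic growth medium, 3632 and 3577 after normoxic differentiation, 0.713 and 0.0839 in hypoxic growth medium, and 2.13 and 1.67 in hypoxic differentiation medium. The 4 groups did not overlap and had the same order as those of Mylpf. The 2 hypoxic growth values correspond to 9 and 1 fragments by the steps between low values, so that group's level is poorly fixed. Myl1 rose by 9.34 ± 0.28 with differentiation medium in normoxia (adjusted p 9.6e-07), 760.4-fold between group means, and the change in hypoxia minus that in normoxia was -8.25 ± 0.40 (adjusted p 1.6e-05). In hypoxia it rose by 1.09 ± 0.28 (adjusted p 0.0222). That call was lost without normoxic differentiation library A or B (adjusted p 0.0550 and 0.0565), hypoxic growth library B (log2 change 0.76, adjusted p 0.120) or hypoxic differentiation library A (0.97, adjusted p 0.0614), and in a fit of the compared libraries alone (adjusted p 0.0518). The log2 change with lower oxygen was -2.03 ± 0.28 in growth medium (adjusted p 0.00186) and -10.28 ± 0.28 in differentiation medium (adjusted p 5.9e-07).

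Myl4, the essential chain of embryonic skeletal and atrial muscle, was high in 1 group and did not separate the other 3. It was at 2.66 and 1.49 FPKM in normoxic growth medium, 959.8 and 929.7 after normoxic differentiation, 2.00 and 2.2 in hypoxic growth medium, and 1.91 and 2.92 in hypoxic differentiation medium. The 6 libraries outside normoxic differentiation medium overlapped between groups. Myl4 rose by 8.29 ± 0.21 in normoxia (adjusted p 4.5e-07), and its log2 change with medium in hypoxia was 0.12 ± 0.21 (adjusted p 0.676). The difference between oxygen levels was -8.17 ± 0.30 (adjusted p 4.8e-06). Unlike Mylpf and Myl1, it did not pass the test for lower oxygen in growth medium, with a log2 change of 0.04 ± 0.21 (adjusted p 0.905); whether this differs from their fall was not tested. Its RefSeq span overlaps that of Cdc27 on the opposite strand, which had 7.13 to 16.2 FPKM, and whether strand was used in counting is not given in the sources used here.

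The slow and ventricular pair was scarce. Myl2, the regulatory chain of ventricular and slow fibres, was at 10.5 and 7.90 FPKM in normoxic differentiation medium and was listed at 0 in the other 6 libraries. Its change with medium in normoxia was 3.34 ± 0.13 on the log2(FPKM + 1) scale (adjusted p 2.9e-06), and no change was computed between groups listed at 0. Myl2 was tested only through normoxic differentiation medium, so that direction was built into its selection. Myl3, the matching essential chain, was above 0 in 2 libraries, at 0.0727 FPKM in normoxic differentiation library B and 0.0622 in hypoxic differentiation library A, each equal to 1 fragment. Even in normoxic differentiation medium Myl2 held only 0.106% and 0.0783% of the summed light chain FPKM.

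Myl6 encodes the essential chain shared by nonmuscle and smooth muscle myosin and was the most abundant member outside normoxic differentiation medium. Its level was 1538 and 1360.5 FPKM in normoxic growth medium, 443.6 and 497.3 after normoxic differentiation, 1082 and 1099.5 in hypoxic growth medium, and 1385 and 1559 in hypoxic differentiation medium. The normoxic differentiation libraries were the lowest and overlapped no other group, whereas normoxic growth and hypoxic differentiation libraries overlapped. With differentiation medium in normoxia Myl6 fell by 1.62 ± 0.12 on the log2 scale (adjusted p 3.7e-05), 3.08-fold, and the change in hypoxia lay 2.05 ± 0.16 above it (adjusted p 0.000127). Lower oxygen in differentiation medium raised it by 1.64 ± 0.12 (adjusted p 3.4e-05), the only rise among the members in that contrast.

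The 2 other calls for Myl6 were small and were lost in 8 and 9 alternatives, a required minimum change not counted. Normoxic differentiation libraries enter neither contrast, so leaving them out did not alter either log2 change. Differentiation medium in hypoxia gave a log2 change of 0.43 ± 0.12 (adjusted p 0.0259) and lower oxygen in growth medium gave -0.41 ± 0.12 (adjusted p 0.0300). The first missed the threshold without normoxic differentiation library A or B (adjusted p 0.0554 and 0.0550), hypoxic growth library A or B (0.128 and 0.118) or hypoxic differentiation library B (0.0562). The second missed it without normoxic growth library A (0.127), normoxic differentiation library A or B (0.0616 and 0.0610) or hypoxic growth library A or B (0.144 and 0.125), and under median-of-ratios scaling, where the log2 change was -0.29 (adjusted p 0.112).

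Myl6b, an essential chain found in slow skeletal muscle and in nonmuscle tissue, is the neighbour of Myl6 in the genome and moved the opposite way with medium in normoxia. It was at 12.1 and 10.1 FPKM in normoxic growth medium, 127.1 and 125.6 after normoxic differentiation, 7.05 and 6.06 in hypoxic growth medium, and 4.41 and 7.68 in hypoxic differentiation medium. The normoxic differentiation libraries stood above all others, as for the striated chains, and the hypoxic groups overlapped. Myl6b rose by 3.40 ± 0.22 in normoxia (adjusted p 2.3e-05), 11.4-fold, while its log2 change in hypoxia was -0.14 ± 0.22 (adjusted p 0.653) and -0.48 without hypoxic differentiation library B (adjusted p 0.0269). The difference between oxygen levels was -3.54 ± 0.31 (adjusted p 0.000180). Its log2 change with lower oxygen in differentiation medium was -4.22 ± 0.22 (adjusted p 8.5e-06). In growth medium its change with lower oxygen was -0.68 ± 0.22 (adjusted p 0.0447), a call lost when any 1 of the 6 libraries outside hypoxic differentiation medium was left out (normoxic growth A and B 0.195 and 0.0808, normoxic differentiation A and B 0.0912 and 0.0930, hypoxic growth A and B 0.107 and 0.192).

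Myl9, the regulatory chain of smooth muscle and nonmuscle myosin and the substrate of Mylk, was highest in normoxic growth medium. It was at 64.1 and 54.4 FPKM there, 20.2 and 19.2 after normoxic differentiation, 15.4 and 16.7 in hypoxic growth medium, and 8.0 and 38.1 in hypoxic differentiation medium. The normoxic growth libraries overlapped no other group, but the hypoxic differentiation libraries differed from each other so much that they spanned the levels of both middle groups. That pair widened the error of every Myl9 contrast, since the spread is pooled over the 4 groups. The log2 change with medium in normoxia was -1.54 ± 0.59 (adjusted p 0.0552), although the group means differed 3.00-fold. It passed the threshold without hypoxic differentiation library A (adjusted p 3.2e-05), without library B (2.1e-05) and in a fit of the compared libraries alone (6.2e-05).

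Lower oxygen in growth medium gave Myl9 a log2 change of -1.82 ± 0.59 (adjusted p 0.0471), 3.69-fold between group means. Without normoxic growth library A or B (adjusted p 0.178 and 0.122), normoxic differentiation library A or B (0.0921 and 0.0946) or hypoxic growth library A or B (0.165 and 0.145) that call was lost, and without either hypoxic differentiation library it was kept (7.2e-05 without A and 4.6e-05 without B). Contrasts that use the hypoxic differentiation group turned on which library stood for it. The change with medium in hypoxia was 0.14 ± 0.59 (adjusted p 0.879), but 1.2 without library A (adjusted p 0.000757) and -0.92 without library B (adjusted p 0.00193). The change with lower oxygen in differentiation medium was -0.14 ± 0.59 (adjusted p 0.844), but 0.92 without library A (adjusted p 0.000760) and -1.2 without library B (adjusted p 0.000197). The interaction was 1.67 ± 0.84 (adjusted p 0.133), 2.73 without library A (adjusted p 5.0e-05) and 0.62 without library B (adjusted p 0.0134).

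Other genes split the hypoxic differentiation replicates in the same direction as Myl9. The summed level of 7 smooth muscle markers was 135.1 FPKM in library A and 343.8 in library B, with Acta2 at 71.1 and 251.7 and Tagln at 4.71 and 23.8. In the other groups that sum was 370.2 and 290.2 (normoxic growth), 444.9 and 435.9 (normoxic differentiation) and 179.6 and 183.6 FPKM (hypoxic growth). Acta2 alone was at 397.0 and 392.7 FPKM in normoxic differentiation medium, so the high sum there was mostly that gene. By group mean Smtn and Cnn1 were instead lowest there (23.7 and 0.187 FPKM), while Tagln and Lmod1 were not. The defining smooth muscle genes Myh11 and Myocd were at most 0.0891 FPKM in any library. The sum of 5 proliferation markers was 109.6 FPKM in library A and 257.6 in library B, with Mki67 at 3.46 and 23.6. In the other groups that sum was 201.4 and 221.5 (normoxic growth), 73.8 and 77.4 (normoxic differentiation) and 144.3 and 128.9 FPKM (hypoxic growth). By this sum library B stood above every other library, but Pcna alone made up 156.5 FPKM of it. Pcna and Mki67 were higher in library B than in both normoxic growth libraries, whereas Top2a, Cdk1 and Ccnb1 were lower. These 3 were at 30.9, 31.0 and 15.7 FPKM in library B. In normoxic growth medium Top2a was at 36.4 and 45.4, Cdk1 at 39.5 in both libraries and Ccnb1 at 38.9 and 42.5 FPKM. The part of these differences between the replicates in the Myl9 values was not tested.

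The kinases moved in opposite directions with normoxic differentiation. Mylk, the smooth muscle and nonmuscle myosin light chain kinase, was at 6.46 and 8.37 FPKM in normoxic growth medium, 1.90 and 1.99 after normoxic differentiation, 2.68 and 2.28 in hypoxic growth medium, and 2.33 and 2.12 in hypoxic differentiation medium. Normoxic growth medium stood above the other groups, and hypoxic growth and differentiation libraries overlapped. Mylk fell by 1.51 ± 0.14 on the log2 scale with medium in normoxia (adjusted p 0.000111), 3.81-fold, and changed by -1.27 ± 0.14 with lower oxygen in growth medium (adjusted p 0.000727). At 2% oxygen its change with medium was -0.11 ± 0.14 (adjusted p 0.579), and the difference between oxygen levels was 1.40 ± 0.19 (adjusted p 0.00130). In differentiation medium its log2 change with lower oxygen was 0.13 ± 0.14 (adjusted p 0.428), and -0.01 after median-of-ratios scaling.

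Mylk2, the skeletal muscle myosin light chain kinase, which acts on the fast regulatory chain, was low but separated the normoxic groups sharply. It was at 0.837 and 0.820 FPKM in normoxic growth medium, 8.28 in both normoxic differentiation libraries, 0.0529 and 0.0560 in hypoxic growth medium, and 0.0628 and 0.0744 in hypoxic differentiation medium. Normoxic growth libraries lay between normoxic differentiation and hypoxic libraries, and the hypoxic groups were close to each other. Its values were whole multiples of a step to within 0.05 of a fragment, which gave 37 and 47 fragments, 360 and 452, 3 and 3, and 4 and 3 in the same order. From these, adjusted for relative depth, the normoxic differentiation level was 10.0 times that of normoxic growth medium, with an exact 95% counting interval of 7.99 to 12.7. It was 123.1 times that of hypoxic differentiation medium (59.5 to 307.1), and normoxic growth was 15.2 times hypoxic growth (6.70 to 42.6). The ratio of hypoxic differentiation to hypoxic growth was 1.24 (0.356 to 4.45), so a difference was not detectable at this depth. These intervals cover counting error alone. By limma Mylk2 changed by 2.34 ± 0.08 with medium in normoxia (adjusted p 1.9e-06), by -0.79 ± 0.08 with lower oxygen in growth medium (adjusted p 0.000619), by -3.12 ± 0.08 with lower oxygen in differentiation medium (adjusted p 5.2e-07) and by 0.02 ± 0.08 with medium in hypoxia (adjusted p 0.881). The interaction was -2.32 ± 0.12 (adjusted p 2.0e-05). Mylk2 was tested only through normoxic differentiation medium, so changes that involve that group were built into its selection.

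**Figure D2:**
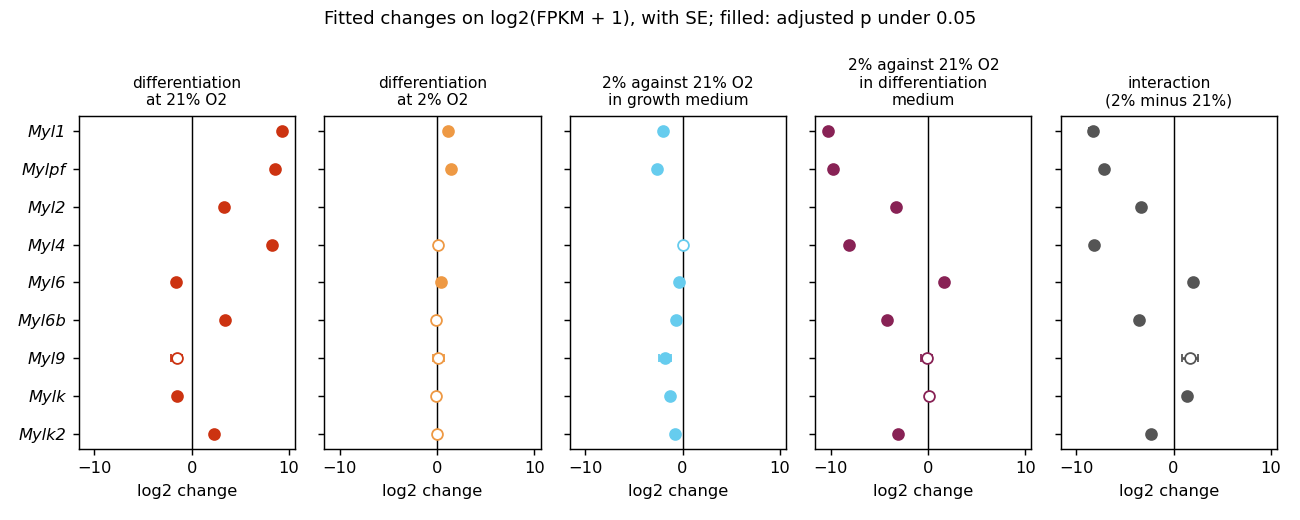
Fitted log2 changes of the 9 tested members in the 5 contrasts, with bars for the SE and filled symbols for adjusted p under 0.05. The normoxic differentiation panel spreads from -1.62 for Myl6 to 9.34 for Myl1, whereas in hypoxia the changes lie between -0.14 and 1.39.

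Ratios within a library set muscle against nonmuscle isoforms without any scaling between libraries. With 2 libraries a group they were described and not tested. The log2 ratio of the regulatory chains Mylpf to Myl9 was -2.24 and -2.40 in normoxic growth medium and 7.85 and 8.0 in normoxic differentiation medium, so the more abundant chain changed from Myl9 to Mylpf. In hypoxia it was -3.87 and -3.89 in growth medium and -0.39 and -3.56 in differentiation medium, below 0 in all 4 libraries but with a wide gap between the latter pair. For the essential chains, the log2 ratio of Myl1 to Myl6 was -7.98 and -8.65 in normoxic growth medium, 3.03 and 2.85 after normoxic differentiation, -10.57 and -13.68 in hypoxic growth medium, and -9.35 and -9.86 in hypoxic differentiation medium. The kinase ratio of Mylk2 to Mylk was -2.95 and -3.35, 2.12 and 2.06, -5.66 and -5.34, and -5.21 and -4.83 in the same order. All 3 ratios were above 0 in normoxic differentiation medium and below 0 in the other 6 libraries.

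**Figure D3:**
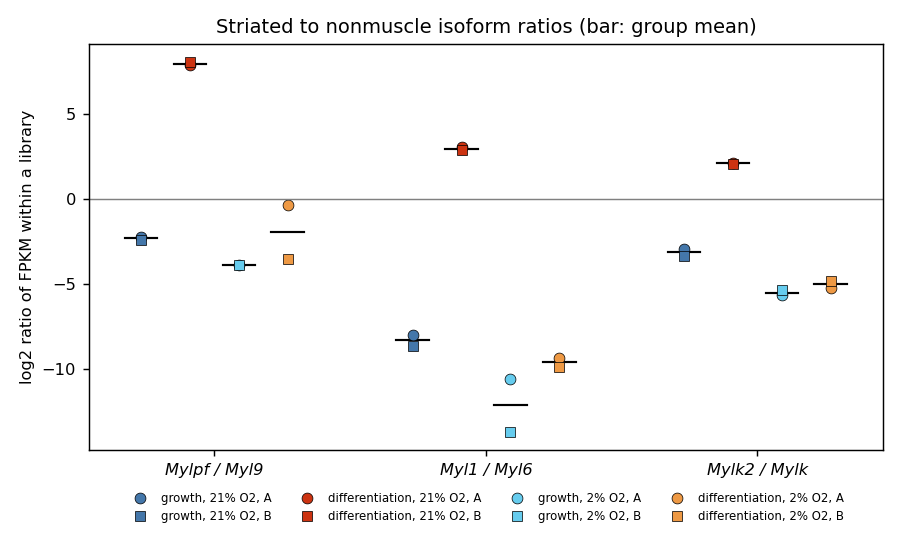
Log2 ratio of a striated to a nonmuscle isoform within each library, with bars for group means. Only the 2 normoxic differentiation libraries lie above the line at 0, and the Mylpf to Myl9 ratio of the hypoxic differentiation libraries ranges from -3.56 to -0.39.

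The light chain signal as a whole changed in size and in make-up. The 8 light chains summed to 1636 and 1440.2 FPKM in normoxic growth medium, 9867 and 10092 after normoxic differentiation, 1109 and 1126 in hypoxic growth medium, and 1408 and 1612 in hypoxic differentiation medium. The 5 striated chains made up 1.36% and 1.05% of it, 94.0% and 93.6%, 0.340% and 0.302%, and 0.726% and 0.485% in the same order. In normoxic differentiation medium Mylpf accounted for 47.4% and 48.9%, Myl1 for 36.8% and 35.4% and Myl4 for 9.73% and 9.21%, and Myl6 for 4.5% and 4.93%. In the other 3 groups Myl6 accounted for 94.0% to 98.4%. When the regulatory chains Myl12a and Myl12b, which are no members, were added to the sum, the striated share of normoxic differentiation medium was 89.1% and 88.9%, and at most 0.932% elsewhere. The nonmuscle members summed to 1519 ± 133.5 FPKM (SD, n = 2) in normoxic growth medium and to 616.5 ± 36.3 in normoxic differentiation medium, where they remained beside the striated set. That sum includes Myl6b, which rose with the striated chains from a mean of 11.1 to 126.4 FPKM.

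**Figure D4:**
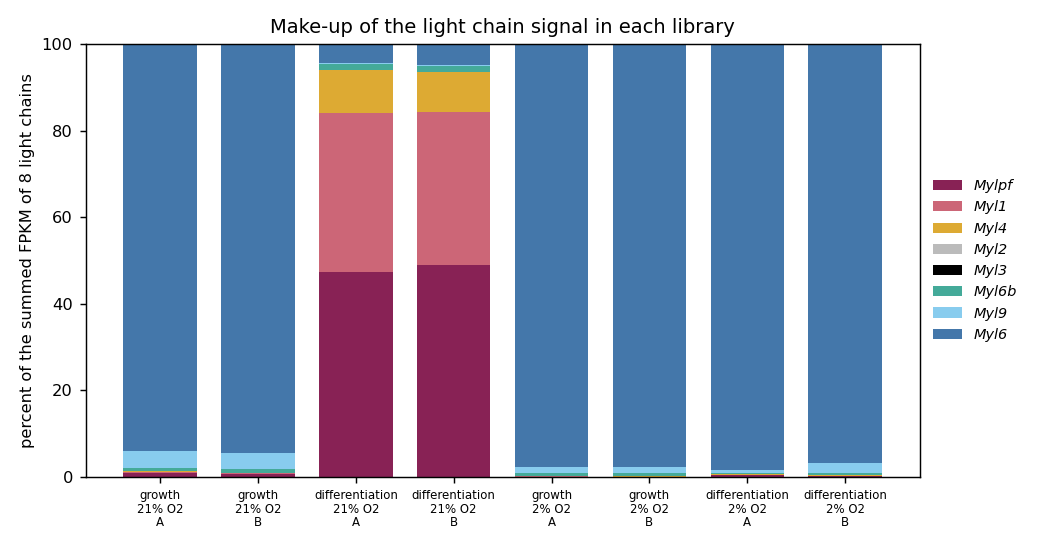
Share of each light chain in the summed FPKM of the 8 light chain members, 1 bar per library. Striated chains fill 93.6% to 94.0% of the normoxic differentiation bars, and Myl6 fills 94.0% to 98.4% of the others.

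The genes whose levels ran most like Mylpf were muscle genes. Among 7859 candidates with at least 10 FPKM in their highest group, the 3 with the highest Pearson's r to Mylpf over the 8 libraries were cardiac actin Actc1, the fusion protein gene Tmem8c (myomaker) and the fast troponin I gene Tnni2, each with r of 0.999. Actc1 averaged 6.59 and 1203 FPKM in growth and differentiation medium in normoxia and 0.254 and 2.31 FPKM in hypoxia, the order seen for Mylpf. For Myl9 they were Ampd2, Emd and Hmgb3 (r of 0.987, 0.984 and 0.973), and Hmgb3 averaged 17.6, 6.42, 4.21 and 5.46 FPKM. These values describe 8 libraries that form 4 pairs, and the r to Mylpf rests largely on the normoxic differentiation pair.

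Other light chain and kinase genes were read beside the members; 4 of 6 listed were tested, of which 2 rose with medium in normoxia, against 25.5% of all tested genes, and 1 fell, against 41%. The 2 that rose, Myl10 and Mylk4, reached a mean of 1 FPKM in normoxic differentiation medium alone, so that direction was built into their selection. Myl12b, a ubiquitous nonmuscle regulatory chain, was at 322.2 and 296.0 FPKM in normoxic growth medium, 143.2 and 129.2 after normoxic differentiation, 169.8 and 176.8 in hypoxic growth medium, and 257.7 and 280.2 in hypoxic differentiation medium. It thus fell with medium in normoxia (log2 change -1.18, adjusted p 5.1e-05) and rose with it in hypoxia (0.63, adjusted p 0.00260). Myl12a, its neighbour and near copy, was at 436.2 and 390.8, 402.7 and 403.7, 229.2 and 230.8, and 268.3 and 363.6 FPKM, and its change with medium in normoxia was -0.03 (adjusted p 0.848). Reads shared by such similar genes could be split between them by the counting. Mylk4, a further kinase of the family, was at 4.34 and 3.77 FPKM in normoxic differentiation medium and at most 0.0528 elsewhere, a log2 change with medium in normoxia of 2.26 (adjusted p 3.3e-06).

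Phosphorylation of the regulatory chain is set by a further 17 listed genes, all of them tested. With medium in normoxia 4 rose, against 25.5% of all tested genes, and 10 fell, against 41%, with a median log2 change of -0.41 against -0.20; in all tested genes, too, falls outnumbered rises, a balance that turned under median-of-ratios scaling. With medium in hypoxia 4 rose, against 23.3%, and 3 fell, against 17.6%, both close to the shares of all tested genes. With lower oxygen in differentiation medium 10 rose, against 37.5%, and 4 fell, against 27.7%, with a median of 0.51 against 0.15. With lower oxygen in growth medium 1 rose, against 13.5%, and 5 fell, against 28%. Ppp1r12b, a targeting subunit of the phosphatase that reverses the kinases, rose with medium in normoxia, from 0.973 and 1.70 to 4.61 and 4.14 FPKM (log2 change 1.22, adjusted p 0.000565), whereas the related subunit Ppp1r12c fell (-1.26, adjusted p 4.5e-05). Rhoa, the GTPase that restrains this phosphatase through its kinases, was 1.35 higher on the log2 scale in hypoxic than in normoxic differentiation medium (adjusted p 2.9e-05).

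The heavy chains that carry the light chains also divided by type. All 6 listed striated heavy chains rose with medium in normoxia and all 6 were lower in hypoxic than in normoxic differentiation medium, with medians of 4.91 and -4.94. Of the 6, Myh1, Myh2, Myh4, Myh7 and Myh8 reached a mean of 1 FPKM in normoxic differentiation medium alone, so these directions were built into their selection and the counts are a description. Myh3, the embryonic heavy chain, was at 1.24 and 0.846 FPKM in normoxic growth medium, 149.8 and 146.3 after normoxic differentiation, 0.0251 and 0.0265 in hypoxic growth medium, and 0.933 and 0.417 in hypoxic differentiation medium. It was the 1 of the 6 called higher with medium in hypoxia (log2 change 0.69, adjusted p 0.0190). The others averaged at most 0.119 FPKM in either hypoxic group, where the log2(FPKM + 1) scale understates changes. Whether their change differs from that of Myh3 was not tested. Myh9, the nonmuscle heavy chain IIA, was at 228.0 and 219.9, 116.9 and 112.9, 212.5 and 223.5, and 222.8 and 262.7 FPKM in the same order, lowest in normoxic differentiation medium, where it fell (log2 change -0.96, adjusted p 0.000158). Both tested genes of the 4 listed nonmuscle and smooth muscle heavy chains, Myh9 and Myh10, fell in normoxia and were higher in hypoxic than in normoxic differentiation medium. Of the 3 myosin folding factors, the muscle genes Unc45b and Smyd1 rose with medium in normoxia (4.92 and 4.34, adjusted p 3.7e-07 and 2.6e-07), and the general form Unc45a fell (-0.89, adjusted p 0.00153). Unc45b and Smyd1 were likewise tested only because of their level in normoxic differentiation medium.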

How the data were processed

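Expression was measured by RNA-seq in 8 libraries of 24 samples; 16 libraries of chromatin and input DNA are not analysed here. Per the labels' protocols, total RNA was made into stranded libraries. The authors deposited 1 table of FPKM per gene and library; STAR 2.5.1b, Cufflinks 2.2.1 and build mm9 are named in the submitters' processing notes, while the annotation, how strand entered the counting and whether libraries were rescaled are not given in the sources used here. FPKM keeps no read totals, so depth is relative. Genes whose mean reached 1 FPKM in any group were fitted as log2(FPKM + 1) with limma 3.58.1 (R 4.3.3, intensity trend, 4 group means, 4 residual and 2.61 prior degrees of freedom), two-sided, with Benjamini-Hochberg adjustment over 12389 genes and a threshold of 0.05. The script was tested on simulated data. Intervals on fragments are exact and cover counting error only.

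All 10 members are named; of the further lists, 6 preset genes and up to 3 called genes a direction with the largest change in a contrast could be named, with the 3 genes of highest r to Mylpf and to Myl9. A gene that this rule names is not reported here. Members and lists were chosen with earlier results of these data known. Alternatives were other pseudocounts, filters, scalings, fits, library weights, a replicate block, a minimum change and leaving out each library. Motifs were searched in RefSeq windows of GRCm38.p6.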

Additional observations from a re-analysis of the deposited data

Results flagged for a closer look

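For 8 members the change with differentiation medium differed between 2% and 21% oxygen by the interaction term of the limma fit (adjusted p under 0.05). The difference in log2 change, hypoxia minus normoxia, was -8.25 for Myl1, -8.17 for Myl4, -7.16 for Mylpf, -3.54 for Myl6b, -3.34 for Myl2, listed at 0 in both hypoxic groups, and -2.32 for Mylk2, each with the smaller change in hypoxia. It was 2.05 for Myl6 and 1.40 for Mylk, which fell with medium in normoxia. Each of the 8 was called in every alternative in which it could be computed. For Myl2 and Mylk2 this adds little, since both were tested only through normoxic differentiation medium and their difference was built into their selection. The 2 libraries a group are too few for a search for single outlying libraries.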

How the results depend on the processing

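Each group has 2 libraries, absolute depth is unknown, and Myl1 and Mylk2 rest on few fragments in hypoxia. The minimum change was applied to the counts of members alone. Of 33 called changes of single members, 28 kept their call in each other alternative, 5 lost it in some and none reversed. Among the 28, the change of Mylk2 with lower oxygen in growth medium (log2 change -0.79) was smaller than that minimum. The count of 7 members called for lower oxygen in growth medium dropped to 4 with the replicate block, without the filter or when calls also had to reach a log2 change of 1 in size, and was 4 to 7 when a library was left out. Differences between A and B correlated little from group to group (-0.166 to 0.042). How the letters were assigned is not given, so these values cannot settle whether they mark pairs. The block kept the other 4 counts at 8, 3, 7 and 8. The count of 3 for medium in hypoxia became 1 with the compared libraries alone or with library weights, and was 1 to 4 when a library was left out. The cause was not tested. Leaving out a library gave both signs for changes that were not called: with medium in hypoxia -0.0905 to 0.34 for Myl4, -0.48 to 0.20 for Myl6b and -0.92 to 1.2 for Myl9, with lower oxygen in growth medium -0.24 to 0.32 for Myl4, and in differentiation medium -1.2 to 0.92 for Myl9. Median-of-ratios scaling turned Mylk there to -0.0078. A pseudocount of 1 moved log2 ratios by its construction: Mylpf to Myl9 to -3.03 in hypoxic growth medium, Myl1 to Myl6 to -9.65 and -8.99 in hypoxic growth and differentiation medium, and Mylk2 to Mylk to -2.19, 1.66, -1.72 and -1.59 in normoxic growth, normoxic differentiation, hypoxic growth and hypoxic differentiation medium.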

Other observations

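Myl10, a regulatory light chain gene outside the members, was higher in hypoxic than in normoxic growth medium. It was tested only because its mean passed 1 FPKM in normoxic differentiation medium, so its high level there is no finding. In normoxia it was at 0.155 and 0.120 FPKM in growth medium and 4.25 and 5.38 in differentiation medium, and in hypoxia at 0.721 and 0.999 in the former and 0.140 and 0.111 in the latter. Myl10 values outside normoxic differentiation medium were all under 1 FPKM, and the fragments behind them were not counted. Its log2 change with lower oxygen in growth medium was 0.71 (limma, adjusted p 0.00545), where Myl1 and Mylpf fell, and with medium in hypoxia it was -0.72 (adjusted p 0.00571). Ppp1r14c, a phosphatase inhibitor gene, was at 22.2 and 20.8, 30.3 and 31.4, 8.35 and 7.10, and 2.43 and 2.55 FPKM in the same order. It fell with medium in hypoxia (-1.32, adjusted p 0.000389) and rose with it in normoxia (0.50, adjusted p 0.00421). Chosen after their values were seen, the atrial chain Myl7 was at most 0.355 FPKM and the cardiac kinase Mylk3 at most 0.912 FPKM in any library, so neither was tested.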
